A study of Rattus norvegicus with 12 samples.

Results

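The enzymes that make, recycle and break down myo-inositol were followed through 6 genes, Impa1, Impa2, Inpp1, Inpp5a, Isyna1 and Miox, in the whole pancreas of diabetic and healthy rats. Their members were the probe sets whose symbol in the platform's annotation was 1 of these names. They were 6 of 10411 genes with a symbol on the array and 7 of the 15866 probe sets tested, since Inpp1 had 2 probe sets and the other genes 1 each. Total RNA of whole pancreas from adult male Wistar rats was hybridized to 12 Affymetrix RAE230-A arrays in 4 groups of 3. The groups were diabetic treated (DT), diabetic untreated (DU), healthy treated (HT) and healthy untreated (HU). Diabetes in DT and DU was induced with streptozotocin, a toxin taken up by beta cells. DT and HT rats drank sodium tungstate at 0.7 g/L in the first week and at 2 g/L in the following 4 to 5 weeks, and DU and HU rats, with no tungstate, were kept for 5 to 6 weeks. Each array held RNA pooled from 3 rats, so every standard deviation and p-value measured the spread between pools and not between rats. The genes were chosen on results of these same arrays, since Impa2 had stood out by its high level in DU compared to HU animals. All DU vs. HU values of the members, and those of Impa2 in the other comparisons that share the DU or HU arrays, are therefore a description with no test. DT vs. HT shares no array with DU vs. HU and was tested for all 7 probe sets. The spread in that test was estimated from all 12 arrays, so the DU and HU arrays enter its standard errors and p-values.

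Cells take up myo-inositol from the blood, make it from glucose, or recover it from inositol phosphates. Receptors that activate phospholipase C split a membrane phosphoinositide into diacylglycerol and inositol trisphosphate, which opens calcium channels of the endoplasmic reticulum. In the acinar cell of the pancreas this signal drives the release of digestive enzymes. Phosphatases then remove the phosphates stepwise: Inpp5a encodes a 5-phosphatase of inositol trisphosphate, Inpp1 encodes a 1-phosphatase of later intermediates, and Impa1 and Impa2 encode the inositol monophosphatases that release free myo-inositol. Isyna1 encodes the synthase that converts glucose 6-phosphate to inositol phosphate, and Miox encodes the oxygenase that opens the inositol ring, an enzyme best known from the kidney. Inpp1 and both monophosphatases belong to a family of metal-dependent, lithium-inhibited phosphatases that also holds the fructose bisphosphatases Fbp1 and Fbp2.

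The promoters of Impa2 and Isyna1 are shown because these were the 2 members whose levels differed most between the groups. They are RefSeq windows of the GRCr8 assembly, from 250 bases before to 50 bases after the annotated start, written 5′ to 3′ on the strand of the gene. The Impa2 window is chr18:63103863-63104162 on the + strand and the Isyna1 window is chr16:18875906-18876205 on the - strand. Capitals mark matches, on either strand, to the GC box GGGCGG, the CCAAT box and the NFAT core TGGAAA.
Impa2: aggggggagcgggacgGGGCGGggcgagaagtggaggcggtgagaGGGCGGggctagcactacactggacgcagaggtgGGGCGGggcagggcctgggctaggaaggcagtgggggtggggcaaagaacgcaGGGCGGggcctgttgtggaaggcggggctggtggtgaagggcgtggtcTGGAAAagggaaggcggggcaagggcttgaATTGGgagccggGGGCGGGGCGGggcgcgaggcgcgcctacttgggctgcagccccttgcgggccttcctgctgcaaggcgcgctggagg
Isyna1: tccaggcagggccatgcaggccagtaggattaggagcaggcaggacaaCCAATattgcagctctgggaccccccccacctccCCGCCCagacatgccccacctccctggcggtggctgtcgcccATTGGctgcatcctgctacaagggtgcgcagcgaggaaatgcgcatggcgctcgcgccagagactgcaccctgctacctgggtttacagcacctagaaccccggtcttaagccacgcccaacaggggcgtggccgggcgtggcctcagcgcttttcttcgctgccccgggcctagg
The Impa2 window held 72.3% G and C, against a median of 51.7% over 33469 promoters, and 23 CpG dinucleotides. It had 6 GC boxes, 2 of which overlapped by a base, 1 CCAAT box and 1 NFAT core. The Isyna1 window held 65.7% G and C, 17 CpG dinucleotides, 1 GC box and 2 CCAAT boxes. These motifs are common, since 33.1% of all promoters held a GC box, 37.5% a CCAAT box and 22.7% an NFAT core. Neither window held the E-box CACGTG (6.42% of promoters), the TATA box TATAAA (14.2%), the nuclear receptor half-site AGGTCA (16.2%) or the forkhead core TGTTTAC (3.78%). Windows were matched for 5 of the 6 genes. The Inpp5a window held 4 GC boxes, the Miox window a TATA box at bases -47 to -42 from the start, and the Inpp1 window a nuclear receptor half-site. A match describes the letters of the window and is not evidence of a bound factor.

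The arrays resembled each other, with medians between 6.63 and 6.70 on the log2 scale and correlations between 0.976 and 0.995. The records of the arrays list 6 scan days and 3 chip lots. No scan day held both DU and HU arrays, and scan day 5 held DT3 and HT3 only. The mean of 10 acinar markers lay at 14.02 to 14.12 in DT, 13.40 to 13.61 in DU, 14.03 to 14.09 in HT and 14.00 to 14.04 in HU arrays. The lower DU values came from the amylase gene Amy2a3, at 8.59, 6.45 and 8.78 in DU arrays against 13.20, 13.10 and 13.07 in HU arrays. The mean of 6 beta cell markers lay at 7.86 to 8.65 in DT, 7.62 to 7.86 in DU, 9.53 to 9.82 in HT and 9.64 to 9.79 in HU arrays. In whole tissue, fewer cells of a type and less RNA per cell cannot be told apart.

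The monophosphatase Impa2 set the DU animals apart. Its log2 intensity was 5.85, 5.54 and 6.21 in DT arrays, 7.27, 7.56 and 7.84 in DU arrays, 5.84, 5.50 and 5.63 in HT arrays, and 5.95, 5.71 and 5.71 in HU arrays. The 3 DU arrays lay above the other 9, and the DT, HT and HU arrays overlapped. The order of the group means was DU (7.56 ± 0.29), DT (5.87 ± 0.34), HU (5.79 ± 0.14) and HT (5.66 ± 0.17; SD, n = 3 pools in each), and the last 3 did not differ beyond their spread. Impa2 was 3.42-fold higher in DU than in HU animals (log2 fold change 1.77) and 3.23-fold lower in DT compared to DU animals (-1.69). In healthy animals HT differed from HU by -0.13. The DT vs. DU change minus the HT vs. HU change was -1.56. These values chose the gene or share arrays with those that did, and carry no test.

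Since the 3 DU arrays lay above the other 9 for Impa2, the direction within a chip lot or scan day was fixed in advance. The sizes there are a description and no check of the contrast. In lot 1, DU1 and DU2 lay 1.71 above HU3, the lot's only HU array, and DT1 and DT2 differed from DU1 and DU2 by -1.72. In lot 3, DT3 differed from DU3 by -1.63. On scan day 1, DT1 and DT2 differed from DU1 by -1.58. With the scan day as a term, DU vs. HU was 2.13, a value that reaches across the other groups. The acinar marker Amy2a3 was low in the same 3 arrays (DT vs. DU log2 fold change 5.01, DU vs. HU -5.18), and its part in the Impa2 values was not tested. The other 9 acinar markers differed between DU and HU by -0.12 to 0.45, with Prss2, a trypsinogen gene, called higher (0.45, adjusted p = 0.0318). Of 4 other endocrine markers, the somatostatin gene Sst was called higher in DU vs. HU (1.32, adjusted p = 0.0217). Sst was -0.96 in DT vs. DU (adjusted p = 0.177). The others, Gcg, Ppy and Pyy, were 0.11, -0.58 and -0.03 in DU vs. HU. Their DT vs. DU values were -0.16, 0.70 and 0.37, and none of them was called. The mean of these 4 lay at 8.17 to 9.41 in DT, 8.67 to 8.78 in DU, 8.56 to 8.76 in HT and 8.46 to 8.68 in HU arrays. Of 5 duct markers, Spp1 was called lower in DT vs. DU (-0.53, adjusted p = 0.0319) and was 0.31 in DU vs. HU (adjusted p = 0.132). The keratin genes Krt19, Krt7, Krt8 and Krt18 were 0.20, 0.09, -0.09 and 0.01 in DT vs. DU. In DU vs. HU they were 0.12, -0.06, -0.06 and 0.32, and none was called. The part of these markers in the Impa2 values was not tested.

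DT vs. HT asks whether diabetic and healthy animals still differed when both drank tungstate. Impa2 was 0.21 higher in DT than in HT animals on the log2 scale (SE 0.17, 95% interval -0.15 to 0.57, adjusted p = 0.642), so a difference was not detected, and an increase of up to 0.57 lay within the interval. The 3 DT arrays overlapped the 3 HT arrays. The highest DT array was DT3, and on its scan day it lay 0.58 above HT3. With the scan day as a term the fold change was that same 0.58 (adjusted p = 0.260), since only DT3 and HT3 then carry the comparison. The value rested on single arrays, being 0.04 without DT3 and 0.38 without DT2, and Impa2 was not called with any 1 array of these groups left out. None of the 7 member probe sets was called in DT vs. HT, against 0.933% of all probe sets, and 1, Isyna1, had an unadjusted p under 0.05.

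**Figure D1:**
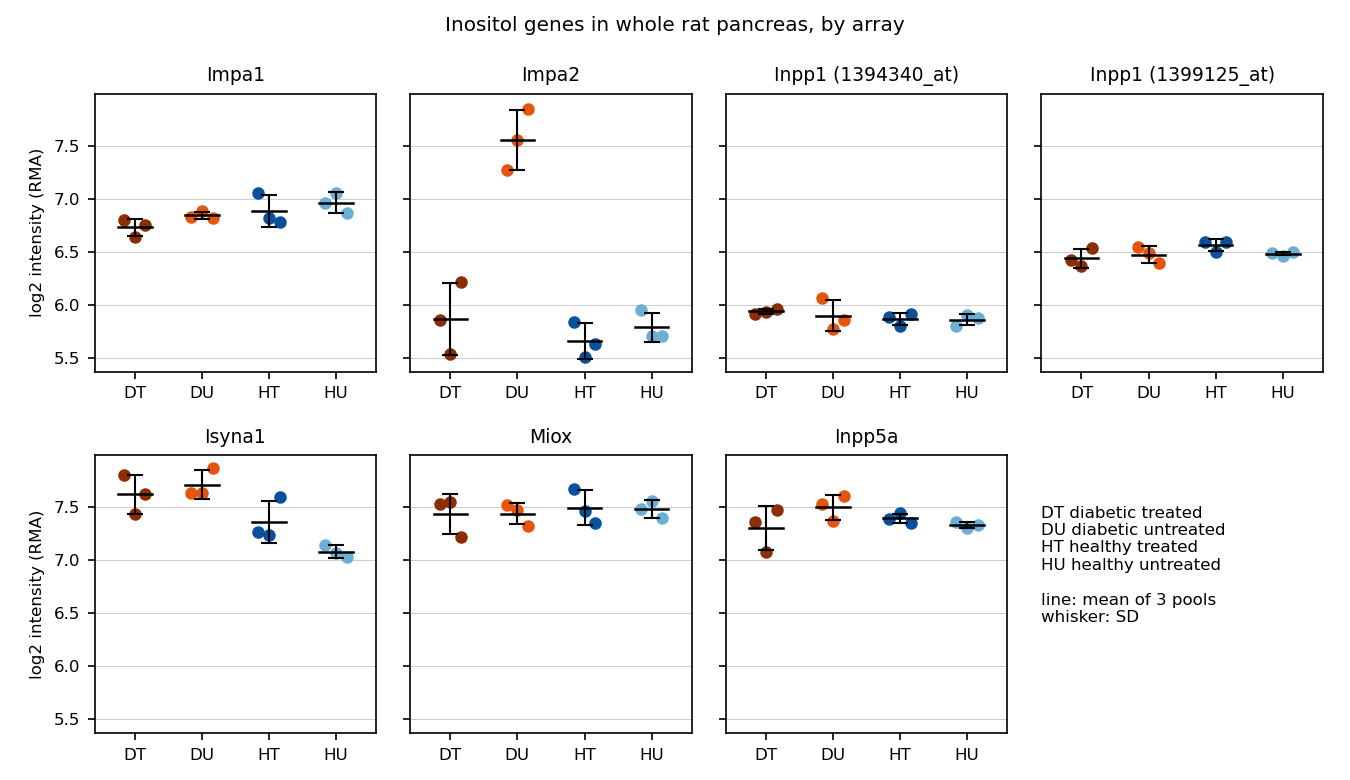
Log2 intensity (vertical axis) of the 7 probe sets on each array, in DT, DU, HT and HU animals; points are arrays, each a pool of 3 rats, lines are means and whiskers are SD. Impa2 stood between 7.27 and 7.84 in DU arrays and at 6.21 or below on all others, and Isyna1 was lowest on the 3 HU arrays.

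The paralog Impa1, the main inositol monophosphatase of most tissues, differed little between the groups. Its log2 intensity was 6.80, 6.64 and 6.75 in DT, 6.83, 6.89 and 6.82 in DU, 7.05, 6.82 and 6.78 in HT, and 6.96, 7.06 and 6.87 in HU arrays. Over all 12 arrays it spanned 0.42, whereas Impa2 spanned 2.34. The log2 fold change was -0.15 in DT vs. HT (95% interval -0.34 to 0.04, adjusted p = 0.514) and -0.11 in DT vs. DU (-0.30 to 0.08, adjusted p = 0.788), although the DT and DU arrays did not overlap. HT vs. HU was -0.08 (-0.27 to 0.11, adjusted p = 0.906). DU vs. HU was -0.12, and the DU and HU arrays overlapped. With the scan day as a term DU vs. HU was 0.15, so the direction of Impa1 there was not settled.

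Isyna1, the synthase of new inositol, was lowest in HU animals. Its log2 intensity was 7.81, 7.44 and 7.63 in DT, 7.64, 7.63 and 7.88 in DU, 7.27, 7.24 and 7.60 in HT, and 7.15, 7.07 and 7.03 in HU arrays. All 9 other arrays lay above the 3 HU arrays. The group means were 7.62 ± 0.19 in DT, 7.71 ± 0.14 in DU, 7.37 ± 0.20 in HT and 7.08 ± 0.06 in HU animals (SD, n = 3 pools in each). The DU and DT arrays overlapped, as did the DT and HT arrays, while HT and HU did not. DU was 1.55-fold higher than HU (log2 fold change 0.63), described without a test. With the scan day as a term this value was 0.27, and within lot 1 DU1 and DU2 lay 0.61 above HU3.

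Where Isyna1 was tested, no call was reached. DT was 0.26 higher than HT (SE 0.12, 95% interval 0.004 to 0.51, unadjusted p = 0.0471, adjusted p = 0.383), but on the scan day they shared, DT3 lay only 0.03 above HT3. HT was 0.29 higher than HU (0.03 to 0.54, unadjusted p = 0.0293, adjusted p = 0.871), and this comparison shares the HU arrays with DU vs. HU. Within scan day 3, HT1 and HT2 lay 0.22 above HU3, and within lot 2 they lay 0.14 above HU1 and HU2. DT vs. DU was -0.09 (-0.34 to 0.16, adjusted p = 0.888). The DT vs. DU change minus the HT vs. HU change was -0.38 (-0.73 to -0.02, unadjusted p = 0.0399, adjusted p = 0.537). This difference uses the DU and HU arrays, on which Isyna1 passed the threshold in DU vs. HU. Its p-value and that of HT vs. HU are therefore no independent evidence. Of the 6 beta cell markers, 4 (Ins1, Ins2, Iapp and Slc2a2) were called lower in DT vs. HT and in DU vs. HU, where Isyna1 had positive fold changes. Ins1, an insulin gene, had log2 fold changes of -2.12 in DT vs. HT (adjusted p = 0.00105) and -2.97 in DU vs. HU (adjusted p = 1.04e-05). Their part in the Isyna1 values was not tested.

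Miox, the enzyme that breaks inositol down, differed little between the groups. Its log2 intensity was 7.53, 7.55 and 7.22 in DT, 7.52, 7.47 and 7.33 in DU, 7.68, 7.47 and 7.36 in HT, and 7.49, 7.57 and 7.40 in HU arrays, and all groups overlapped. The log2 fold change was -0.06 in DT vs. HT (95% interval -0.30 to 0.17, adjusted p = 0.862) and -0.01 in DT vs. DU (-0.24 to 0.23, adjusted p = 0.995). It was -0.04 in DU vs. HU and 0.02 in HT vs. HU (-0.22 to 0.25, adjusted p = 0.985). Of 4 kidney tubule markers, none was called in any comparison, and their mean lay between 6.73 and 7.003 on all arrays.

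Inpp5a, which ends the calcium signal of inositol trisphosphate, differed by less than 0.2 on the log2 scale in every comparison. Its log2 intensity was 7.36, 7.08 and 7.48 in DT, 7.53, 7.37 and 7.61 in DU, 7.39, 7.45 and 7.36 in HT, and 7.36, 7.30 and 7.33 in HU arrays. The DU arrays lay just above the HU arrays without overlap, by 0.17 in the mean, described without a test. With the scan day as a term this difference was 0.52, and within lot 1 it was 0.12. DT vs. DU was -0.20 (95% interval -0.41 to 0.02, unadjusted p = 0.0734, adjusted p = 0.571). DT vs. HT was -0.09 (-0.31 to 0.13, adjusted p = 0.759) and HT vs. HU was 0.06 (-0.15 to 0.28, adjusted p = 0.934). The DT vs. DU change minus the HT vs. HU change was -0.26 (-0.57 to 0.05, adjusted p = 0.651).

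The 2 probe sets of Inpp1 varied little, spanning 0.29 (1394340_at) and 0.23 (1399125_at) over the 12 arrays. Their Pearson r was 0.16, and over so narrow a range it does not show whether they agree. The probe set 1394340_at was 5.91, 5.93 and 5.96 in DT, 6.06, 5.77 and 5.86 in DU, 5.89, 5.80 and 5.91 in HT, and 5.80, 5.90 and 5.88 in HU arrays. The DT arrays lay above the HT arrays by 0.07 in the mean without overlap (95% interval -0.11 to 0.25, adjusted p = 0.783). The probe set 1399125_at was 6.42, 6.36 and 6.54 in DT, 6.54, 6.48 and 6.39 in DU, 6.60, 6.50 and 6.60 in HT, and 6.49, 6.46 and 6.50 in HU arrays. Here DT vs. HT was -0.12 (-0.29 to 0.04, adjusted p = 0.532), so the signs of the 2 probe sets differed, while both intervals held 0. HT lay 0.08 above HU at 1399125_at without overlap (-0.08 to 0.24, adjusted p = 0.891). Both probe sets differed by -0.03 to 0.04 in DT vs. DU and by -0.01 to 0.04 in DU vs. HU.

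Over the members tested, no call was made in DT vs. DU or HT vs. HU, as in DT vs. HT. Impa2 was left out where DU or HU arrays enter. It passed the threshold in DT vs. DU and for the difference of the tungstate change, and nothing is read from that. In DT vs. DU, none of the 6 probe sets other than Impa2 was called, against 1.12% of all probe sets, and none had an unadjusted p under 0.05. In HT vs. HU none of the 6 was called, against 0.0063%, and 1, Isyna1, had an unadjusted p under 0.05. For the difference of the tungstate change between diabetic and healthy animals none of the 6 was called, against 0.422%, and again Isyna1 alone had an unadjusted p under 0.05. These 3 sets of tests share the DU or HU arrays with the comparison that singled out Impa2. In DU vs. HU the threshold was passed by 2 of 7, Impa2 and Isyna1, beside 3.2% of all probe sets, and nothing is read from that count, which was 0 in the fit with a term for scan day and 1 in that with a term for chip lot. Arrays of the groups did not overlap for 1 of 7 probe sets in DT vs. HT (15.9% of all probe sets), 1 of 6 in DT vs. DU (13.9%) and 2 of 6 in HT vs. HU (11.6%). In DU vs. HU they did not overlap for 3 of 7 (29.4%).

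**Figure D2:**
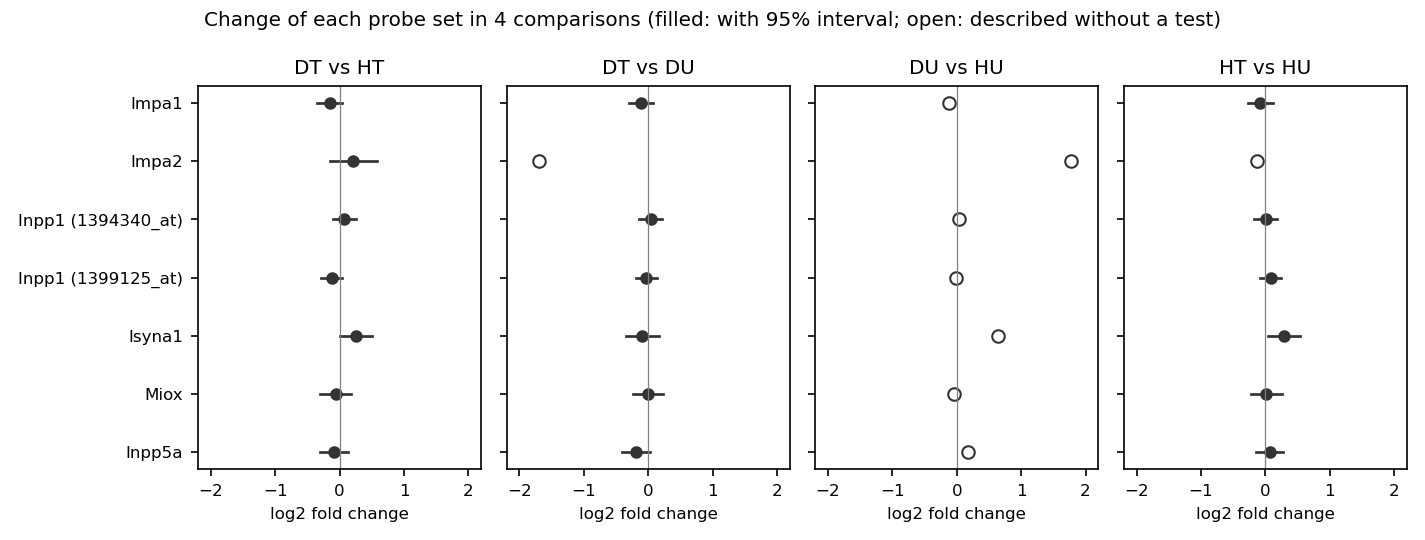
Log2 fold change (horizontal axis) of the 7 probe sets in DT vs. HT, DT vs. DU, DU vs. HU and HT vs. HU; filled points have 95% intervals from limma, and open points are described without a test. Impa2 stood at -1.69 in DT vs. DU and 1.77 in DU vs. HU, and at 0.21 in DT vs. HT.

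Around the members, 72 of 93 listed genes of inositol and phosphoinositide metabolism were measured. In DT vs. HT none of the 72 was called and 7 had an unadjusted p under 0.05, with a median log2 fold change of 0.04 against -0.02 over all probe sets. In DT vs. DU, 1 rose (0.655% of all probe sets rose) and 2 fell (0.46% fell), with a median of -0.01 against 0.00. In DU vs. HU, 5 rose (1.47%) and 2 fell (1.73%), with a median of 0.04 against -0.02. With the scan day as a term none of the 72 was called in DU vs. HU. The count of 7 there was 3 without DU1 and 4 without DU2, without HU2 or without HU3. In HT vs. HU none was called, 1 had an unadjusted p under 0.05, and the median was 0.00.

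The largest changes among the 72 genes in DT vs. DU and in DU vs. HU were those of Fbp2 and Fbp1, relatives of the monophosphatases. Of the 4 other measured genes of the lithium-inhibited family, Fbp1 and Fbp2 passed the threshold in both DU comparisons, and the nucleotidases Bpnt1 and Bpnt2 in none. That Fbp1 and Fbp2 were high in DU was among the results known when the lists were made, so their values in these comparisons are a description, given without a p-value, and their place in the counts is no independent evidence. Fbp2, the muscle-type fructose bisphosphatase, was 8.33, 7.93 and 8.30 in DT, 9.89, 9.53 and 9.52 in DU, 8.20, 8.14 and 8.11 in HT, and 8.18, 8.36 and 8.24 in HU arrays. As for Impa2, the DU arrays lay above all others and the other 3 groups overlapped. The log2 fold change of Fbp2 was -1.46 in DT vs. DU and 1.39 in DU vs. HU (SE 0.12 each). Fbp1, the liver-type enzyme of gluconeogenesis, was 7.46, 7.01 and 7.13 in DT, 8.24, 8.42 and 8.11 in DU, 7.04, 7.25 and 6.88 in HT, and 7.26, 7.29 and 6.78 in HU arrays. Its log2 fold change was -1.06 in DT vs. DU and 1.15 in DU vs. HU (SE 0.15 each). DT vs. HT was 0.04 for Fbp2 (adjusted p = 0.931) and 0.14 for Fbp1 (adjusted p = 0.761).

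Among 5 other measured genes of inositol supply and breakdown, the xylulose reductase gene Dcxr, which acts downstream of Miox, went the other way. It was 9.23, 9.002 and 8.82 in DT, 8.35, 8.50 and 8.46 in DU, 8.85, 8.90 and 9.06 in HT, and 8.71, 8.96 and 8.97 in HU arrays, with the DU arrays below all others. Dcxr rose by 0.58 in DT compared to DU animals (adjusted p = 0.0193) and was -0.44 in DU vs. HU (adjusted p = 0.0459). The pathway genes called in DT vs. DU numbered 3. They were 2 in the fit of the 6 arrays compared and without DT1, DT2, DU1, DU2 or DU3. At least 1 of Dcxr, Fbp1 and Fbp2 thus lost its call there, and Dcxr lay nearest the threshold. The inositol transporter Slc2a13 had log2 fold changes of -0.12 in DT vs. HT, 0.01 in DT vs. DU and -0.15 in DU vs. HU, and was not called.

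Of 23 other inositol phosphate and phosphoinositide phosphatases, 3 rose (1.47% of all probe sets rose) and 1 fell (1.73% fell) in DU vs. HU. None was called elsewhere, and with the scan day as a term none was called in DU vs. HU. The diphosphoinositol phosphatase gene Nudt4 was 10.61, 10.31 and 10.36 in DT, 10.63, 10.33 and 11.03 in DU, 9.80, 10.05 and 10.00 in HT, and 9.89, 9.55 and 10.03 in HU arrays. At this probe set, the brightest of 3 for Nudt4, both diabetic groups thus lay above both healthy groups. The log2 fold change was 0.84 in DU vs. HU (adjusted p = 0.0136) and 0.48 in DT vs. HT (adjusted p = 0.229). The 5-phosphatase gene Inpp5b rose by 0.45 in DU compared to HU animals (adjusted p = 0.00668), and was -0.32 in DT vs. DU (adjusted p = 0.0885). The myotubularin relative Mtmr1, at the brighter of its 2 probe sets, rose by 0.38 in DU compared to HU animals (adjusted p = 0.0335). It was 0.04 in DT vs. DU (adjusted p = 0.943). Fig4, a phosphoinositide 5-phosphatase gene, was 0.45 lower in DU than in HU animals. It was named after its values were seen, so this is a description, given without a p-value. None of the 7 inositol phosphate kinases, 15 genes of phosphatidylinositol synthesis and phosphoinositide kinases, 13 phospholipase C and IP3 receptor genes and 5 osmolyte and polyol genes was called in any of the 4 comparisons. Of all probe sets, 0.933% were called in DT vs. HT, 1.12% in DT vs. DU, 3.2% in DU vs. HU and 0.0063% in HT vs. HU.

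**Figure D3:**
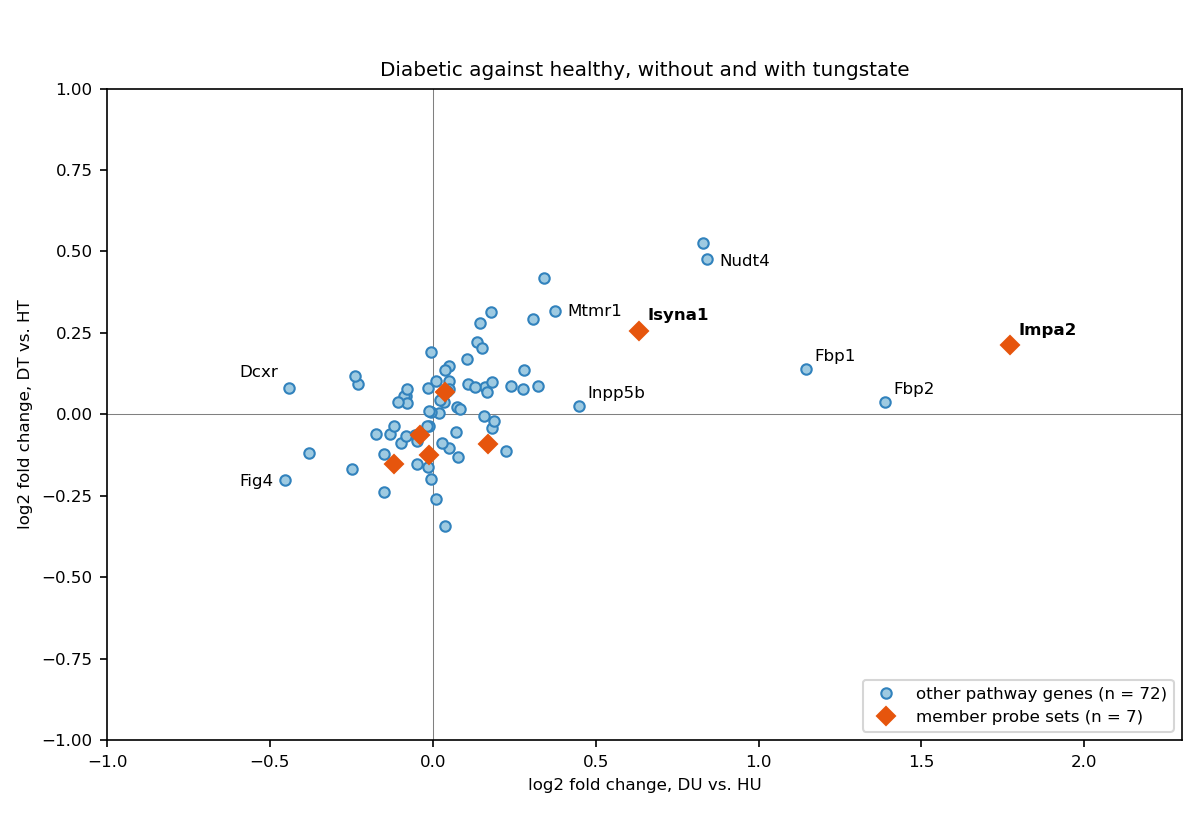
Log2 fold change in DU vs. HU (horizontal axis) and in DT vs. HT (vertical axis), which share no array, for the 7 member probe sets (diamonds) and 72 other pathway genes (circles). Impa2, Fbp2 and Fbp1 lay at 1.77, 1.39 and 1.15 on the horizontal axis and at 0.21, 0.04 and 0.14 on the vertical axis.

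The genes whose pattern over the 12 arrays was most like that of Impa2, by Pearson r among 12782 probe sets with 1 symbol, were Cbr1 (0.979), Txnip (0.973), Ech1 (0.971), Ppcdc (0.971) and Decr1 (0.963). Cbr1 encodes a carbonyl reductase, Txnip the thioredoxin-interacting protein, Ech1 and Decr1 auxiliary enzymes of fatty acid oxidation, and Ppcdc an enzyme of coenzyme A synthesis. Cbr1, the nearest, was 8.18, 8.06 and 8.16 in DT, 9.90, 10.34 and 10.61 in DU, 7.94, 7.99 and 7.89 in HT, and 7.95, 7.88 and 7.94 in HU arrays. Fbp2 ranked 11 with an r of 0.945 and Fbp1 ranked 26 with 0.911. The lowest values were those of Tff2 (-0.968), which encodes a trefoil peptide, and Nr0b2 (-0.96), which encodes an orphan nuclear receptor. Of the other members, r with Impa2 was 0.623 for Inpp5a, 0.613 for Isyna1, -0.02 for Impa1 and -0.24 for Miox, and 0.01 and -0.15 for the 2 probe sets of Inpp1. These coefficients describe a single contrast, that of 3 DU arrays with the other 9. Over the 9 arrays without DU, where Impa2 spanned 0.71, r with the 5 genes lay between 0.169 and 0.68, and none of the 5 was among the 5 nearest. None was among the 5 nearest by Spearman's rho either.

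**Figure D4:**
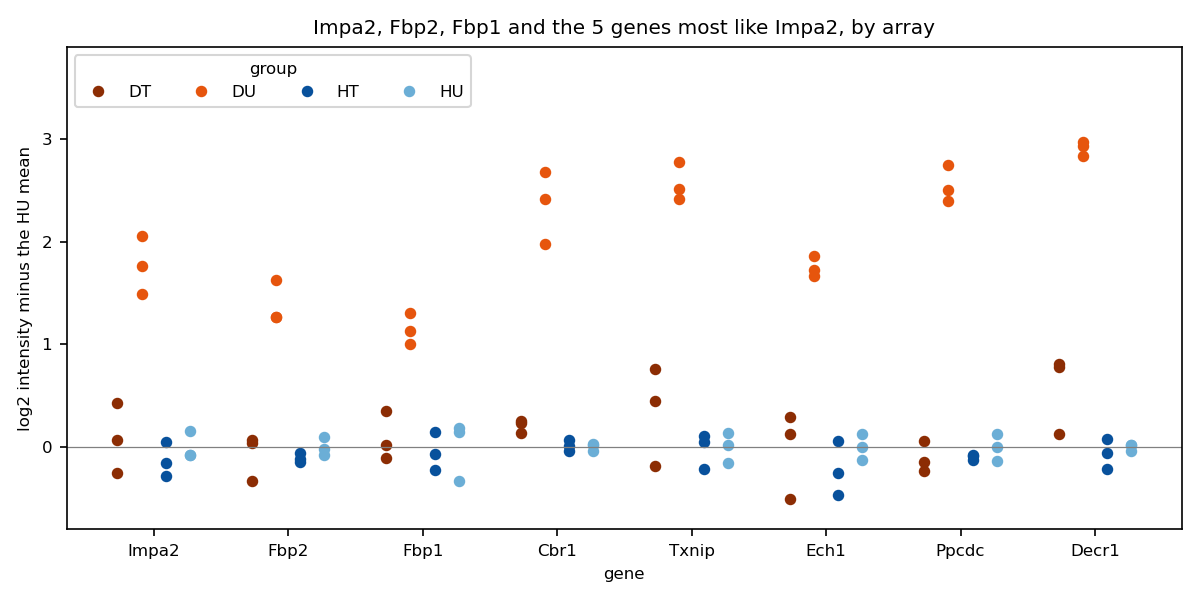
Log2 intensity minus the HU mean of each gene (vertical axis) on each array, for Impa2, Fbp2, Fbp1 and the 5 genes most like Impa2 (horizontal axis), with points in the order DT, DU, HT and HU. For each of these genes the 3 DU arrays stood above the other 9.

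The brightness of the Impa2 probe set bears on its folds. It ranked at percentile 23.2 to 39.6 of the probe sets of an array in DT, 66.9 to 80.2 in DU, 23.2 to 28.8 in HT and 26.5 to 31.9 in HU animals. This is a rank of brightness and not of transcript number. The deposited values carry no detection call, so whether Impa2 stood above background outside DU was not determined.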

How the data were processed

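Whole pancreas RNA was measured on 12 arrays, 3 for each of DT, DU, HT and HU, and the 3 pools of a group are its replicates. The authors made the deposited log2 intensities from the scanned images by RMA, which adjusts the background, gives all arrays the same distribution and summarizes the probes of a set, and these values were used as deposited. RMA narrows small differences between dim probe sets. Arrays have no read depth, and their number limits the precision. The deposited array records, whose values have other units and are settings of the experiment, gave the scan day and chip lot. Of 15923 probe sets, 57 controls were left out. A mean for each group was fitted to the other 15866 with limma 3.58.1 in R 4.3.3, and its moderated test was adjusted by Benjamini-Hochberg within each comparison. A probe set was called at an adjusted p under 0.05. Fold changes are the first group over the second.

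The members and the lists were chosen with earlier results of these data known. The p-values of listed genes in DT vs. DU and DU vs. HU are therefore no independent evidence. A gene of a list was represented by the probe set with the highest mean over 12 arrays, and members were not counted in lists. Genes were named if they were members, if they were up to 3 genes of a pathway group with the smallest adjusted p under 0.05 in any of the 4 comparisons, or if they were the 5 most like and 2 least like Impa2 by Pearson r. Of the probe sets, 12783 had 1 gene symbol, 312 several and 2771 none, and older symbols were updated through the gene identifiers. As alternatives, the values were quantile normalized again or centred on array medians, the dimmest 25% of probe sets were dropped, the fit was restricted to the 6 arrays of a comparison or run with a trended, robust variance, scan day, chip lot and replicate number each entered as a block, a B-statistic above 0 replaced the adjusted p, and each array was left out in turn. The fit was tested on simulated data.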

Additional observations from a re-analysis of the deposited data

Results flagged for a closer look

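The change with tungstate differed between diabetic and healthy animals for Fbp2, a relative of the inositol monophosphatases. The DT vs. DU change minus the HT vs. HU change was -1.35 on the log2 scale (SE 0.17), and passed the threshold in limma. High Fbp2 in DU was known when the gene was listed and the same DU arrays enter this difference, so it is a description and not an independent test. Fbp2 was -1.46 in DT vs. DU and -0.11 in HT vs. HU.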

How the results depend on the processing

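Where a single probe set was tested, 252 values were obtained under the alternatives; none was called, as in the fits reported, 232 kept their direction and 20 changed sign. Of 126 values described without a test, 10 changed sign, all in DU vs. HU and all of Impa1, Inpp1 or Miox, and 8 moved beyond the spread. Members past the threshold in DU vs. HU numbered 0 with a scan day term and 1 with a chip lot term, against 2. The pathway genes called there numbered 0 with the scan day, 4 by the B-statistic and 3 to 6 when single arrays were left out, against 7; the cause was not tested. The sign changed with the scan day for Inpp5a in DT vs. HT (0.123), Inpp1 1394340_at in DT vs. DU (-0.138) and in HT vs. HU (-0.0313), Miox in DT vs. DU (0.0195) and Impa1 in HT vs. HU (0.0706). With single arrays left out, values near 0 ranged from -0.0221 to 0.122 for Inpp1 1394340_at and from -0.0814 to 0.00533 for 1399125_at in DT vs. DU, and from -0.0217 to 0.0398 for 1394340_at in HT vs. HU. They ranged from -0.179 to 0.0230 for Inpp5a in DT vs. HT and from -0.183 to 0.00190 for Isyna1 in DT vs. DU. For Miox they ranged from -0.134 to 0.0444 in DT vs. HT, from -0.0654 to 0.101 in DT vs. DU and from -0.0716 to 0.0876 in HT vs. HU.

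Titles give the groups the same replicate numbers. After the mean of its group was subtracted from each probe set, correlations of same-numbered arrays lay between -0.287 and 0.107 over 12 pairs. Not every array correlated best with its own number. A pairing was therefore not shown, though these correlations cannot exclude a shared step. With a replicate block, Impa2 in DT vs. HT was 0.21 (adjusted p = 0.601), the pathway genes called in DU vs. HU numbered 6, and no count of called members changed. The number of arrays limits every interval, and signal over background was not available.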
